A study of Mus musculus with 25 samples.

Results

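The genes described here are 32 genes of fatty acid oxidation, chosen by name as the genes that take up, activate, transport and oxidise fatty acids in mitochondria, with the genes that regulate this fuel use. All 32 of 32 were found among the 14457 genes of the table, and all had at least 1 CPM (a read count scaled to the depth of its library) in at least 5 libraries, the level filter used, which removed 0 genes. They were measured by RNA sequencing of mouse atria, in 13 libraries of mice labelled as knockouts of Pam and 12 of wild-type mice. The knockout libraries came from 5 males and 8 females and the wild-type libraries from 7 males and 5 females, all untreated adults of 60 to 90 days. Pam encodes peptidylglycine alpha-amidating monooxygenase, the enzyme that amidates secreted peptides, and the series asked how atria with reduced Pam differ from atria with basal levels. The labels name the genotype only as a Pam knockout. The allele, the deleted part, any Cre driver and the strain are not given there. RNA was prepared from single atria, but whether 2 libraries shared a mouse is not given either, so p-values measure the spread between these libraries.

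Fatty acids are the main fuel of the adult heart. They enter the myocyte, are bound to coenzyme A, cross the mitochondrial membranes as carnitine esters and are shortened by a repeated cycle of dehydrogenation, hydration, a second dehydrogenation and thiolysis. Electrons from the first step pass through the electron transfer flavoprotein to the respiratory chain. In heart, the nuclear receptor PPARα and its coactivator PGC-1α are known to keep many of these genes active.

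Libraries are named here by genotype (K or W), sex (M or F) and number, as in the labels. Pam was at 295 to 520 CPM in the knockout libraries, against 1409 to 6245 CPM in the wild-type libraries, so the groups did not overlap. Library names fall into 3 sets, called LARA (12 libraries), CGI (9) and MaleKOAtrium (4, all of knockout males) after their words, and the labels do not say what the sets mean. Depth ran from 2246887 to 8098602 reads with a median of 5385966, and 3 reads corresponded to 0.370 to 1.34 CPM. Bmp10, which encodes a BMP family ligand known from the right atrium, was under 100 CPM in 8 libraries, called Bmp10-low, and at 444 to 7597 CPM in the other 17, called Bmp10-high. These classes were made from the data and not from the labels. The Bmp10-low libraries were KM01, KF14, KF16 and KF19 of the knockouts and WM1, WM2, WM3 and WF10 of the wild type. The 6 genes listed for atrial myocytes summed to 3576 CPM in WF10 and to 10151 to 20200 CPM in the other libraries, so the labelled tissue had its markers, while the 5 measured ventricular markers summed to 159 CPM in KM01 and up to 6792 CPM in WF10. In whole tissue, fewer cells of a type and less RNA per cell cannot be told apart.

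The 32 genes were mostly abundant. Their median level over the 25 libraries had a median of 172 CPM over the 32 genes, against 20.7 CPM over all 14457 genes, and 20 of the 32 had a median of at least 100 CPM. Together they made up 0.367% of the CPM in KM01 and 1.62% in WF8, the lowest and the highest library. They also varied more than most genes, with a median standard deviation of the log2 level of 0.54, against 0.43 for all genes.

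Of the uptake and activation genes, Fabp3 and Cd36 were among the highest. Fabp3, the heart fatty acid binding protein (chr4:130308595-130315463, GRCm38), had a median of 1348 CPM, or 1640 CPM per kilobase of transcript, the highest of the 32 per length. Cd36, the fatty acid translocase of the cell surface (chr5:17781690-17888801), had a median of 1421 CPM and 418 CPM per kilobase, the third per length. Acsl1, the long-chain acyl-CoA synthetase of heart, had a median of 253 CPM and 65.0 CPM per kilobase, with 507 CPM in KM13 and 55.3 CPM in KM01 as its extremes.

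The carnitine shuttle genes were lower. Crat, which encodes carnitine acetyltransferase, had a median of 197 CPM, Slc25a20, the carnitine-acylcarnitine carrier of the inner membrane, 96.2 CPM, Cpt1a, the liver form of the outer membrane transferase, 58.5 CPM and Cpt2, the inner membrane transferase, 56.3 CPM. Cpt2 spanned 21.2 CPM in KM01 to 240 CPM in KM13. Cpt1b, the muscle form of the outer membrane transferase (chr15:89416405-89425863), had a median of only 2.19 CPM, or 0.756 CPM per kilobase, the lowest of the 32 per length. In the GENCODE M21 annotation 81.4% of its exon bases lie on the same strand as exons of the read-through gene Gm44502, and how reads that fit both genes were counted is not stated in the sources used. Its value is therefore uncertain, and so is that of Etfb, with 58.2% of its exon bases shared.

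Of the acyl-CoA dehydrogenases, which carry out the first step for different chain lengths, Acadm (medium chain) had a median of 610 CPM, Acadl (long chain) 497 CPM, Acadvl (very long chain) 147 CPM and Acads (short chain) 55.9 CPM. Per kilobase these were 298, 260, 67.7 and 29.9 CPM, in the same order. KM01 was the lowest library for all 4, and KM13 the highest for all except Acadm, which peaked in KF15.

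Hadha and Hadhb encode the alpha and beta subunits of the mitochondrial trifunctional protein, which carries out the last 3 reactions of the cycle on long chains. They are neighbours on chromosome 5 and are transcribed away from each other. Their RefSeq promoter windows, 250 bases before to 50 bases after each gene start, overlap: that of Hadha is chr5:30154931-30155230 on the minus strand and that of Hadhb is chr5:30155003-30155302 on the plus strand (GRCm38.p6). The Hadhb window is shown because 228 of its 300 bases, in capitals, are shared with the Hadha window.
Hadhb: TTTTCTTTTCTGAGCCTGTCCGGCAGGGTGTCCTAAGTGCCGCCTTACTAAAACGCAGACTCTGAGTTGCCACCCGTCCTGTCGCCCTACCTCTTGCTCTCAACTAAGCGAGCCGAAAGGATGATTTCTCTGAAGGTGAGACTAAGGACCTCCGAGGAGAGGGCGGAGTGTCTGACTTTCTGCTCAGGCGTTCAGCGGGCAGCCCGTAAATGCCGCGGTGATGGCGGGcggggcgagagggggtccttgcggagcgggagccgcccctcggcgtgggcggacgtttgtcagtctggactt
Levels of these 2 genes did not keep 1 ratio. The Hadhb level per Hadha level, in CPM, was 1.26 in KM13, the lowest of the 25 libraries, and 4.31 in WM1, the highest. Over groups it was 1.26 to 2.39 in knockout males, 2.01 to 4.08 in knockout females, 2.05 to 4.31 in wild-type males and 1.65 to 2.87 in wild-type females, so all groups overlapped. Per kilobase of transcript the medians were 98.5 CPM for Hadha and 518 CPM for Hadhb.

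The other genes of these reactions were Acat1 (mitochondrial acetoacetyl-CoA thiolase), with a median of 640 CPM, Acaa2 (3-ketoacyl-CoA thiolase), with 479 CPM, Echs1 (short-chain enoyl-CoA hydratase), with 361 CPM, Hadh (short-chain hydroxyacyl-CoA dehydrogenase), with 284 CPM, and Acaa1a, a peroxisomal thiolase, with 56.3 CPM. Acaa1a has a near-identical copy, Acaa1b, so reads could be split between them. Decr1, the dienoyl-CoA reductase needed for unsaturated chains (chr4:15917240-15945507), had a median of 348 CPM, and the enoyl-CoA isomerases Eci1 and Eci2 had 143 and 130 CPM. Etfdh and Etfa of the electron transfer chain had 465 and 457 CPM, and Etfb 19.8 CPM.

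Genes that set the use of the pathway ranged widely in level. Pdk4, the kinase that turns off pyruvate dehydrogenase, had a median of 209 CPM and ranged from 99.3 CPM in WF11 to 634 CPM in WF8. Ucp3, a mitochondrial carrier of muscle, had a median of 12.2 CPM, with 0 CPM in KM01 and 41.6 CPM in KM13, and the highest standard deviation of the log2 level of the 32, at 1.04. Mlycd, which removes the Cpt1 inhibitor malonyl-CoA, had a median of 39.7 CPM. The acyl-CoA thioesterases Acot2 and Acot1 had 9.88 and 4.35 CPM and are near-identical copies, so their values are uncertain. Ppargc1a, the gene of PGC-1α, had a median of 112 CPM and Ppara, the gene of PPARα, 14 CPM.

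Of the 32 genes, 27 had a RefSeq promoter window, in 28 windows, and Acaa2, Acat1, Cpt1b, Crat and Decr1 had none in the table used. Nuclear receptors of this pathway bind copies of the letters AGGTCA. On either strand these letters were in 6 of the 28 windows (Acadm, Acadvl, Cd36, Cpt1a, Echs1 and Ucp3) and in 16.3% of all 32851 windows. The longer form AAGGTCA, which contains them, was in 1 of the 28, that of Acadm, and in 4.72% of all windows. A pair of AGGTCA copies in the same direction with 1 base between them was in 0 of the 28 and in 0.0396% of all windows. These matches describe letters only. The Acadm window (chr3:153944594-153944893, minus strand, GRCm38.p6) is shown as the only one of the 28 with the longer form, which stands in capitals on the opposite strand near the 5′ end of the window.
Acadm: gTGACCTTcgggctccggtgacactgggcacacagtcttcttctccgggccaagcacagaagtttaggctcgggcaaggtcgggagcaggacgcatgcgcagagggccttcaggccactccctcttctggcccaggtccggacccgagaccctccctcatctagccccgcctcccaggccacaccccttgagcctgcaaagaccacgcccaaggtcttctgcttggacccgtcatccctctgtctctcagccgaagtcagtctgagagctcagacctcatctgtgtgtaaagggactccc

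Among the knockout males were libraries at both ends of the range. KM13, a knockout male, had the highest level of 16 of the 32 genes, and KM01, also a knockout male, had the lowest level of 27. Relative to each gene's median over the 25 libraries, the median log2 deviation of the 32 genes was 0.75 in KM13 and -1.41 in KM01, against -0.14 and -0.27 for all genes in these libraries. WF8 and KF15 each had the highest level of 5 genes, with median deviations of 0.61 and 0.58.

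**Figure D1:**
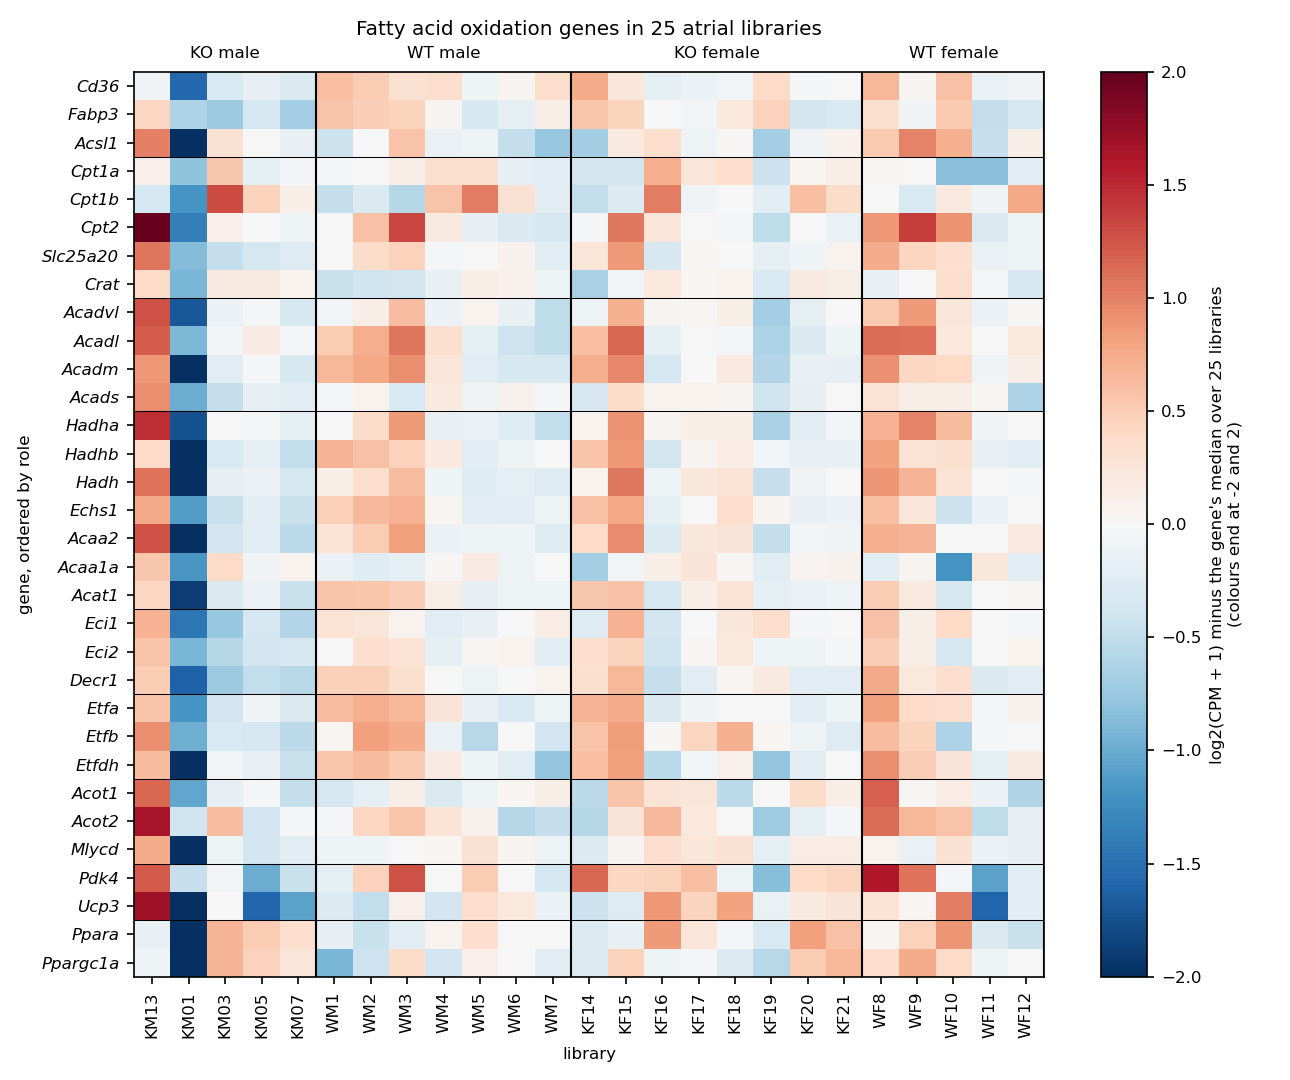
Heat map of the 32 genes (rows, ordered by role with lines between roles) in the 25 libraries (columns, by group), where colour is log2(CPM + 1) minus the gene's median over the 25 libraries. KM13 is above the median in most rows and KM01 is below it in nearly all, with median deviations of 0.75 and -1.41.

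The level also went with the set of library names. The 32 genes summed to 0.367% to 0.895% of the CPM in the MaleKOAtrium set (median 0.802%), to 0.890% to 1.25% in the CGI set (median 0.943%) and to 0.900% to 1.62% in the LARA set (median 1.38%). Within the LARA set the sum was 1.60% in KM13, the only knockout male, against 1.09% to 1.49% in 4 wild-type males, and 0.900% to 1.58% in 5 knockout females, against 1.32% and 1.62% in 2 wild-type females. Within the CGI set it was 0.915% to 0.956% in 3 knockout females, against 0.890% to 1.25% in 3 wild-type females, and 0.909% to 0.943% in 3 wild-type males. Since the MaleKOAtrium set holds knockout males only, genotype and set cannot be told apart for those 4 libraries.

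Markers of other cells went with the sum in some libraries and not in others. The ventricular markers summed to 6792 CPM in WF10, 5332 in KF15, 4177 in WF8 and 3927 in KM13, the 4 highest libraries, and to 159 CPM in KM01, the lowest. KF15, WF8 and KM13 were also the 3 libraries with the highest sum of the 32 genes, while WF10 was at 1.25%. WM1, WM2, WM3, KF14 and WF9 followed, with 1658 to 3106 CPM of these markers and 1.32% to 1.49%, while WM4 had 2535 CPM with 1.09%. All remaining libraries had 159 to 1414 CPM of these markers and 0.367% to 1.09%. Among them the order was not kept. KF17 and KF18 had 301 and 334 CPM with 1.02% and 1.09%, and KM03 had 1414 CPM with 0.830%. White adipocyte markers summed to 844 CPM in KM13, 822 in WM1, 689 in WF8 and 639 in WM2, but to 48.8 in KF15, 32.5 in WM3 and 1.20 in KM01. The 2 measured brown adipocyte markers summed to 185 CPM in WM1, 143 in WM2, 125 in WM4 and 78.1 in WF8. They were at 27.1 CPM in KM13, 27.3 in KF15 and 2.41 in KM01. Mitochondrially encoded genes took 18.5% of the CPM in KM01 and 30.2% in WF10, the libraries of lowest depth, and at most 13% in each other library. Both are Bmp10-low libraries. KM01 also stood apart by its erythroid markers, at 5477 CPM, and by its skeletal muscle list of 3 measured genes, at 491 CPM, where KM07 was next at 138 CPM and KM13 was at 11.9 CPM. The part of these cells in the levels of the 32 genes was not tested beyond the fits with a ventricular term given below.

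**Figure D2:**
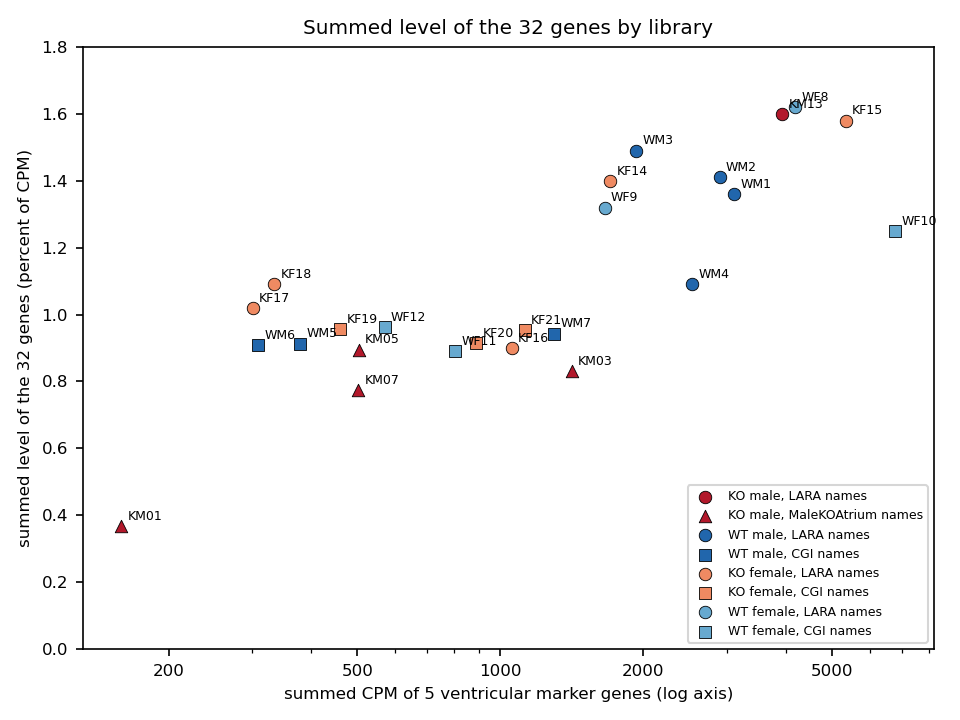
Summed level of the 32 genes, in percent of CPM, against the summed CPM of 5 ventricular markers (log axis), 1 point per library, with colour for group and shape for the set of library names. KM01 is lowest on both axes (0.367% and 159 CPM), and WF8, KM13 and KF15 are highest in the sum of the 32 genes (1.58% to 1.62%).

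In males, 0 of the 32 genes passed the test of knockout against wild type, where 0.277% of all 14457 genes were called (limma on log2(CPM + 1), Benjamini-Hochberg adjusted p under 0.05 over all genes, 5 knockout and 7 wild-type libraries, no set term). Differences here and below are log2 differences on the log2(CPM + 1) scale with their standard error (SE), knockout minus wild type. At an unadjusted p under 0.05 there were 4 of the 32. Counts at an unadjusted p, here and below, are given without the share of all genes, so they are not set against other genes. On the recovered reads edgeR called 0 and DESeq2 called 1, Cd36, where DESeq2 called 2.86% of all genes. Of the 32 differences 27 were below 0, with a median of -0.34, against 0.05 for all genes. The smallest adjusted p was 0.259.

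Cd36 had the smallest p of those below 0. It was at 1349 CPM in KM13, 478 in KM01, 1148 in KM03, 1271 in KM05 and 1165 in KM07, against a lowest value of 1344, a median of 1807 and a highest of 2159 CPM in the 7 wild-type males. Only KM13 reached the wild-type range, just above WM5. The means were 1082 ± 347 CPM (SD, n = 5) in knockouts and 1768 ± 284 CPM (SD, n = 7) in wild type, a difference of -0.78 ± 0.26 that did not pass (limma adjusted p = 0.259, DESeq2 adjusted p = 0.0376). Within the LARA set KM13, at 1349 CPM, was below all 4 wild-type males, at 1756 to 2159 CPM. Of these only WM4, at 1823 CPM, has an RA name and is Bmp10-high, as KM13 is. WM1, WM2 and WM3 have LA names and are Bmp10-low, so against them genotype and Bmp10 class cannot be told apart. Without KM01 the difference was -0.51 ± 0.16.

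Decr1 was the one gene called in males without KM13. Its level was 493 CPM in KM13, 113 in KM01, 210 in KM03, 246 in KM05 and 236 in KM07, against 323 to 484 CPM in wild-type males (median 365 CPM). The 4 MaleKOAtrium libraries were below all other 21 libraries, of which KF16, at 253 CPM, was the lowest, and KM13 was above all wild-type males. With KM13 the difference was -0.75 ± 0.28 (limma adjusted p = 0.302). Without KM13 Decr1 fell by 1.02 on the log2 scale (SE 0.22, limma adjusted p = 0.0414), the only one of the 32 genes to pass, where 1.42% of all genes were called. With the name set as a term, which leaves KM13 against the LARA males, it was 0.18 (limma adjusted p = 0.939).

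Fabp3 also had its highest value among the knockout males in KM13. It was at 1790 CPM in KM13 and at 874, 811, 1071 and 837 CPM in KM01, KM03, KM05 and KM07, against 1079 to 2000 CPM in wild-type males (median 1462 CPM). The 4 MaleKOAtrium libraries were below all 7 wild-type males, and KM13 was within their range. The difference was -0.56 ± 0.24 (limma adjusted p = 0.383), and without KM13 -0.76 ± 0.22 (limma adjusted p = 0.0820). Eci1 behaved alike, at 233 CPM in KM13 and 51.7 to 113 CPM in the other 4, against 124 to 175 CPM in wild-type males, with -0.54 ± 0.27 (limma adjusted p = 0.459) and without KM13 -0.83 ± 0.20 (limma adjusted p = 0.0534).

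KM13 and KM01 pulled the list in opposite directions. Medians of fits with other terms or libraries left out, here and below, are set against all genes only where the median of all genes is given. Without KM13 the median of the 32 differences was -0.60, with 29 below 0. Without KM01 it was -0.05, with 17 below 0, and 0 genes passed. With both left out, a choice made after seeing the data, it was -0.30 with 24 below 0, and 6 of the 32 genes passed (Cd36, Decr1, Eci1, Eci2 and Fabp3 lower, Ppara higher), where 18% of all genes were called, so the share of the 32 was near that of all genes. Those 3 knockout males, KM03, KM05 and KM07, are all of the MaleKOAtrium set. In the 8 Bmp10-high males alone the median was 0.10 and 0 of the 32 genes passed.

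Hadhb, the trifunctional beta subunit, was at 1389 CPM in KM13, 220 in KM01, 861 in KM03, 932 in KM05 and 757 in KM07, against 904 to 1705 CPM in wild-type males (median 1218 CPM), a difference of -0.80 ± 0.36 (limma adjusted p = 0.402). The alpha subunit gene Hadha was at 1102 CPM in KM13, above all wild-type males, and at 118 to 391 CPM in the other 4, against 281 to 715 CPM in wild-type males, a difference of -0.12 ± 0.41. Above 0, the smallest p belonged to Acot2 (0.25 ± 0.34, limma adjusted p = 0.799) and Crat (0.16 ± 0.21, limma adjusted p = 0.803). Acot2 was at 33.0 CPM in KM13 and at 7.22 to 15.6 CPM in the other 4 knockouts, against 6.31 to 14.9 CPM in wild-type males. Crat was at 257 CPM in KM13, 104 in KM01 and 208 to 224 CPM in the other 3, against 145 to 216 CPM in wild-type males. Ventricular markers summed to 3927 CPM in KM13, 159 in KM01 and 502 to 1414 CPM in the other 3, against 309 to 3106 CPM in wild-type males. Epicardial markers summed to 731 CPM in KM13 and 149 to 254 CPM in the other 4 knockout males, against 682 to 1063 CPM in wild-type males. Of the 5 genes of that list 1 was called lower, with a median of -1.62. The white and brown adipocyte lists had median differences of -0.67 and -1.29 in males, with 0 genes called. The part of these lists in the differences of the 32 genes was not tested. With the log2 of the ventricular sum as a term, also chosen after seeing the data, the median difference of the 32 genes was -0.09, that of Cd36 -0.60 ± 0.21 and that of Decr1 -0.54 ± 0.20, and 0 genes passed.

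**Figure D3:**
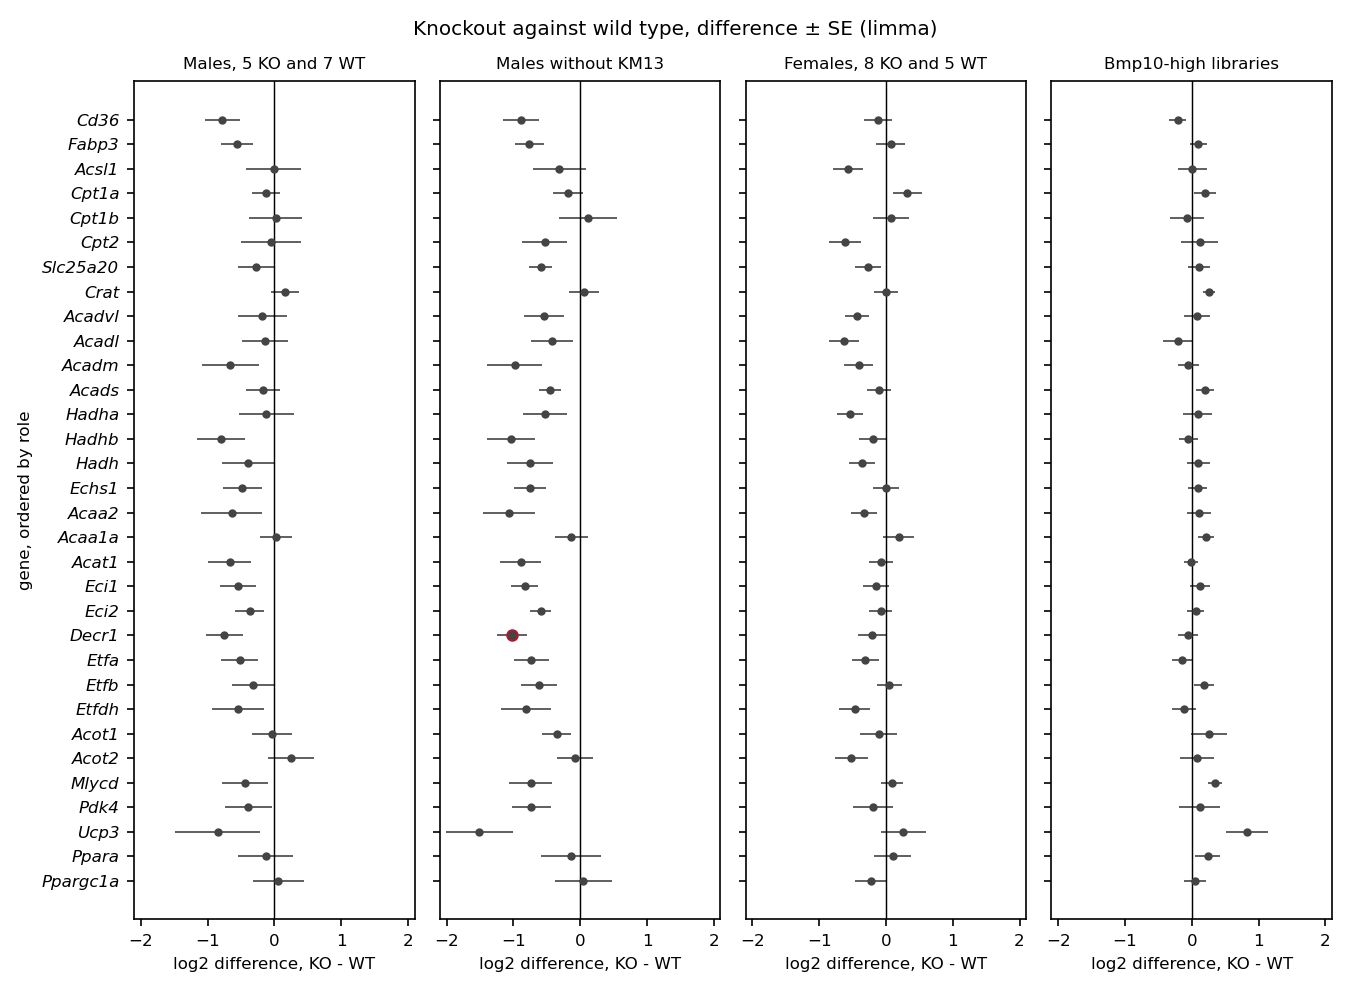
Log2 differences of the 32 genes, knockout minus wild type, with SE from limma, in males, in males without KM13, in females and in the Bmp10-high libraries, where a red point marks an adjusted p under 0.05. Only Decr1 in males without KM13 passed (-1.02, limma adjusted p = 0.0414).

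In females, 0 of the 32 genes passed, where 0.0138% of all genes were called (8 knockout and 5 wild-type libraries, limma with a set term). The unadjusted p was under 0.05 for 5 of the 32, all lower in knockouts, and edgeR and DESeq2 called 0. Of the differences 23 were below 0, with a median of -0.17, against 0.11 for all genes, and 22 of the 32 were below 0 without the set term.

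Acadl, the long-chain dehydrogenase, had the smallest p in females. It was at 322 CPM in the lowest, 476 CPM at the median and 1105 CPM in the highest of 8 knockout females, against 1078, 1068, 574, 497 and 575 CPM in WF8, WF9, WF10, WF11 and WF12. The groups overlapped, and the highest libraries of each, KF15 and KF14 and then WF8 and WF9, were all of the LARA set. The means were 560 ± 253 CPM (SD, n = 8) in knockouts and 758 ± 289 CPM (SD, n = 5) in wild type, a difference of -0.63 ± 0.22 (limma adjusted p = 0.935). It was -0.80 ± 0.32 within the LARA set, with 5 knockout and 2 wild-type libraries, and -0.47 ± 0.32 within the CGI set, with 3 of each, and neither passed.

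Hadha was at 252 CPM in the lowest, 412 CPM at the median and 738 CPM in the highest knockout female, against 643, 784, 610, 375 and 396 CPM in WF8 to WF12. Here too the groups overlapped, with a difference of -0.54 ± 0.20 (limma adjusted p = 0.935) that was -0.59 within the LARA set and -0.49 within the CGI set. The other 3 genes with an unadjusted p under 0.05 were Cpt2 (-0.62 ± 0.24), Acsl1 (-0.57 ± 0.23) and Acadvl (-0.43 ± 0.18), which encode the inner carnitine transferase, the acyl-CoA synthetase and the very-long-chain dehydrogenase. Hadhb, the partner subunit of Hadha, was at -0.19 ± 0.21, and the carnitine carrier gene Slc25a20 at -0.27 ± 0.20. Above 0, the smallest p belonged to Cpt1a (0.32 ± 0.22) and Acaa1a (0.19 ± 0.23), with limma adjusted p = 0.935 and 0.941. Cpt1a was at 43.1 to 97.8 CPM in knockout females, against 32.3 to 59.9 CPM in wild-type females. Ventricular markers summed to 301 to 5332 CPM in knockout females, with a median of 973 CPM, against 570 to 6792 CPM in wild-type females, with a median of 1658 CPM. Dbp, an output gene of the circadian clock, was at 41.3 to 121 CPM in knockout females, against 75.4, 94.1, 3.12, 6.38 and 11.5 CPM in WF8 to WF12, so WF10, WF11 and WF12 stood apart. The 4 genes of the clock list (Dbp, Per2, Nr1d1 and Arntl) had a median difference of 1.34, against 0.11 for all genes. Arntl went the other way, at 3.04 to 11.8 CPM in knockout females, against 8.29, 11.6, 30.7, 63.3 and 53.3 CPM in WF8 to WF12. The 3 genes listed as glucocorticoid targets had a median difference of 1.53. Of both lists 0 were called by limma and each gene had an unadjusted p under 0.05. Their part in the differences of the 32 genes was not tested. With the log2 ventricular sum as a term the median difference was -0.03, those of Acadl and Hadha were -0.42 ± 0.20 and -0.35 ± 0.18, and 0 of the 32 genes had an unadjusted p under 0.05.

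**Figure D4:**
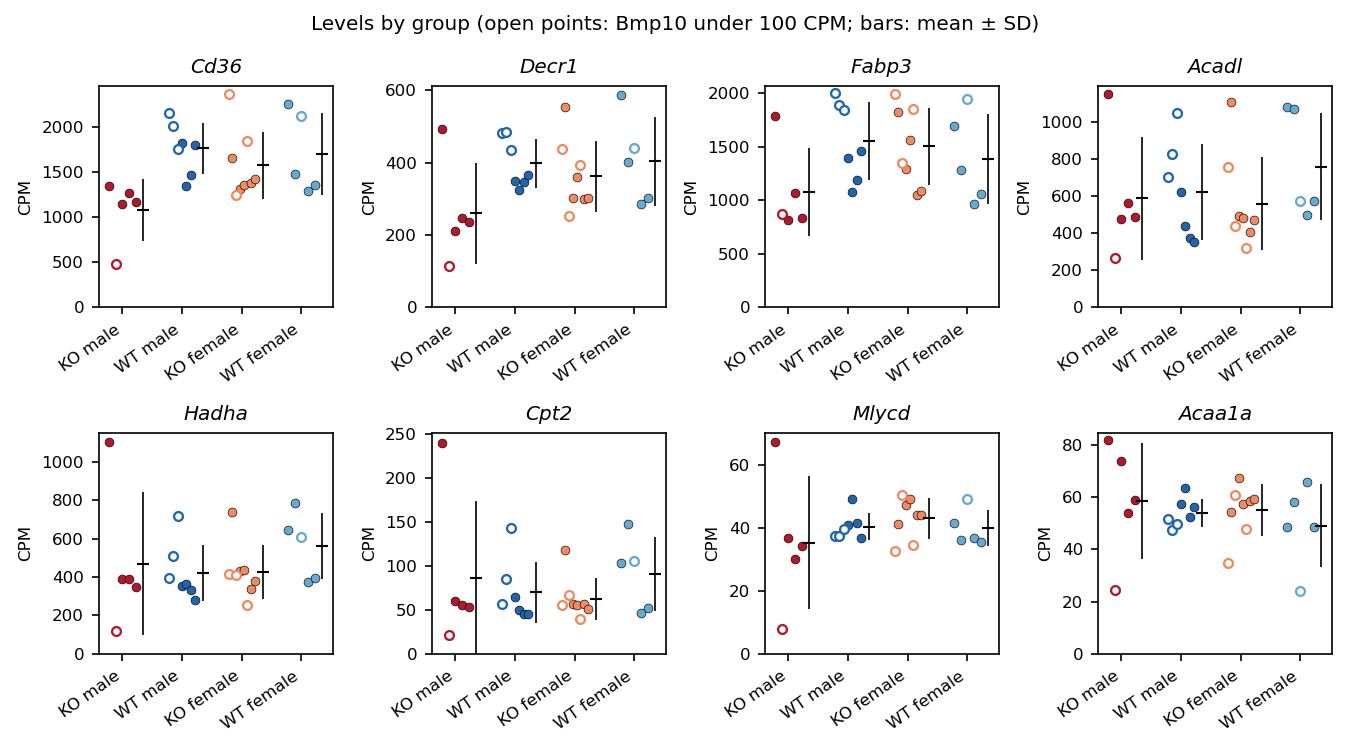
CPM of 8 of the 32 genes in each library by group, with open points for Bmp10-low libraries and bars for the mean ± SD (cut at 0). Knockout and wild-type points overlap within each sex in all 8 panels, and in knockout males KM13 is the highest point and KM01 the lowest in 7 of them, Fabp3 being the exception with KM03 lowest.

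Over both sexes, 0 of the 32 genes passed, and 0 had an unadjusted p under 0.05 (25 libraries, limma with terms for sex and set, where 0.00692% of all genes were called, edgeR and DESeq2 with 0 of the 32). With the set as a term the MaleKOAtrium libraries do not enter the difference, which rests on 8 knockout females and KM13. Below 0 were 17 of the 32, with a median of -0.05, against 0.07 for all genes. The smallest p below 0 were those of Acadl (-0.38 ± 0.21) and Etfa, the alpha subunit of the electron transfer flavoprotein (-0.24 ± 0.18), and above 0 those of Acaa1a (0.29 ± 0.20) and Ucp3 (0.62 ± 0.40), all with limma adjusted p = 0.981. Etfa was at 202 to 765 CPM in knockouts, against 371 to 805 CPM in wild type, and Ucp3 at 0 to 41.6 CPM, against 3.39 to 25.8 CPM. Without the set term 28 of the 32 differences were below 0, with a median of -0.24 and 0 genes that passed, and Ucp3 turned to -0.25. As the average of the 2 sexes' differences in a fit with set terms the median turned to 0.22, with 22 of 32 above 0. The male part of that average rests on KM13, so it is not the male difference given above, which had no set term. With the ventricular term added to the main fit the median was 0.07, with 25 above 0. In the main fit without KM13 it was -0.15, with 23 below 0.

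The authors' deposited table gives for each gene a log2 ratio, wild type over knockout, and a DESeq2 p-value, with no statement of the design or of adjustment. Of the 32 genes, 22 had a ratio above 0 in the authors' deposited table, that is, a higher mean in wild type. There, 1 of the 32 had a p-value under 0.05, Cd36 (ratio 0.33, p = 0.0392 by DESeq2), where 7.39% of 14389 lines with a p-value in the authors' deposited table had one.

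Among the 17 Bmp10-high libraries, 9 of knockouts and 8 of wild type, 0 of the 32 genes passed, where 0.0138% of all genes were called (limma with terms for sex and set, 3 of the 32 with an unadjusted p under 0.05, edgeR and DESeq2 with 0). Here 23 of the 32 differences were above 0, with a median of 0.10, against 0.02 for all genes. Without KM13 the direction turned, with 20 of 32 below 0 and a median of -0.07. Mlycd was at 30.1 to 67.2 CPM in knockouts (median 44.0 CPM), against 35.4 to 49.0 CPM in wild type (median 38.8 CPM), with the wild-type values inside the knockout range and a difference of 0.35 ± 0.11 (limma adjusted p = 0.681), or 0.26 ± 0.11 without KM13. Crat was at 190 to 257 CPM in knockouts, against 158 to 216 CPM in wild type, with a difference of 0.26 ± 0.09 (limma adjusted p = 0.746). The smallest p below 0 were those of Cd36 (-0.21 ± 0.13) and Etfa (-0.15 ± 0.15).

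For none of the 32 genes did the difference of the knockout effect between females and males pass (limma interaction with a set term, females minus males, 0 of 32 passed, where 0.0% of all genes were called). Of the 32 interaction estimates 28 were below 0, with a median of -0.67, against 0.25 for all genes, and 11 had an unadjusted p under 0.05. The share of all genes at that unadjusted p is not given here, so the 11 are not set against other genes. Cpt2 had the smallest p (-2.21 ± 0.56, limma adjusted p = 0.245), followed by Acot2 (-1.87 ± 0.48, limma adjusted p = 0.245). Cpt2 was at 39.1 to 118 CPM in knockout females and 240 CPM in KM13, with 21.2 to 60.3 CPM in the other 4 knockout males, against 46.0 to 148 CPM in wild-type females and 44.9 to 143 CPM in wild-type males. Above 0, the smallest p were those of Cpt1a (0.41 ± 0.45) and Cd36 (0.31 ± 0.47). DESeq2 on the recovered reads called 5 of the 32 (Hadha, Acadvl, Cpt2, Acads and Acot2, all lower), where it called 1.63% of all genes, and edgeR called 0 of the 32. The male side of this estimate rests on KM13, since the MaleKOAtrium set has no wild-type library, and without KM13 it could not be fitted. Without the set term the median was 0.25, with 22 of 32 above 0.

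Between the 8 Bmp10-low and the 17 Bmp10-high libraries, 6 of the 32 genes passed, 1 higher and 5 lower in the Bmp10-low libraries (limma with terms for genotype, sex and set). In this comparison 31.8% of all genes were called, 30.0% lower and 1.79% higher, and the median difference of all genes was -0.26, so the 32 genes, with a median of -0.29 and 30 below 0, stood near the bulk of genes. With median-ratio scaling, which removes that shift (median of all genes -0.01), 2 of the 32 passed, where 10.8% of all genes were called, and the median of the 32 was -0.01.

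Fabp3 and Acaa1a passed under both scalings. Over the alternatives run, Fabp3 passed in 22 and did not in 19, and Acaa1a passed in 37 and did not in 4. The count of 6 fell to 1, Acaa1a, when WM1, WF9 or KF19 was left out. Fabp3 was at 874 CPM in the lowest, 1875 CPM at the median and 2000 CPM in the highest Bmp10-low library, against 811, 1186 and 1827 CPM in the Bmp10-high libraries. The Bmp10-low libraries were at 1840 CPM or more in KF14, KF19 and all 4 of the wild type, and lower in KF16 and KM01. Fabp3 was higher in the Bmp10-low libraries by 0.35 ± 0.13 (limma adjusted p = 0.0387), or by 0.63 ± 0.16 with median-ratio scaling (limma adjusted p = 0.0156). Acaa1a was at 24.0, 47.6 and 61.0 CPM in the lowest, median and highest Bmp10-low library, against 48.5, 58.3 and 81.9 CPM in the Bmp10-high libraries, and the classes overlapped. It was lower in the Bmp10-low libraries, with -0.59 ± 0.13 (limma adjusted p = 0.00292), or -0.31 ± 0.10 with median-ratio scaling (limma adjusted p = 0.0444).

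The other 4 genes passed with the deposited scaling only. Ppargc1a was at 26.9 to 146 CPM in Bmp10-low libraries (median 88.3 CPM), against 85.3 to 188 CPM in Bmp10-high libraries (median 120 CPM), with -0.62 ± 0.22 (limma adjusted p = 0.0318). Hadh was at 61.7 to 434 CPM, against 222 to 603 CPM, with -0.48 ± 0.18 (limma adjusted p = 0.0473). In all 4 genes KM01 gave the lowest value of the 25 libraries, and without it Ppargc1a was at -0.30 and Hadh at -0.23, and neither passed. Crat was at 104 to 252 CPM in Bmp10-low libraries, against 158 to 257 CPM in Bmp10-high libraries, with -0.34 ± 0.13 (limma adjusted p = 0.0403), and Acads was at 27.7 to 60.5 CPM, against 36.2 to 107 CPM, with -0.33 ± 0.12 (limma adjusted p = 0.0382). Without KM01 they were at -0.22 and -0.27 and did not pass either. Within wild-type libraries alone 1 of the 32 genes passed, where 17.9% of all genes were called, and their median was 0.14, against -0.34 for all genes. Within knockout libraries alone 2 of the 32 passed, where 7.22% of all genes were called, and their median was -0.53, against -0.27 for all genes. Whether the classes differ between genotypes was not tested. Between the LA and RA names of the LARA set 0 of the 32 passed.

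**Figure D5:**
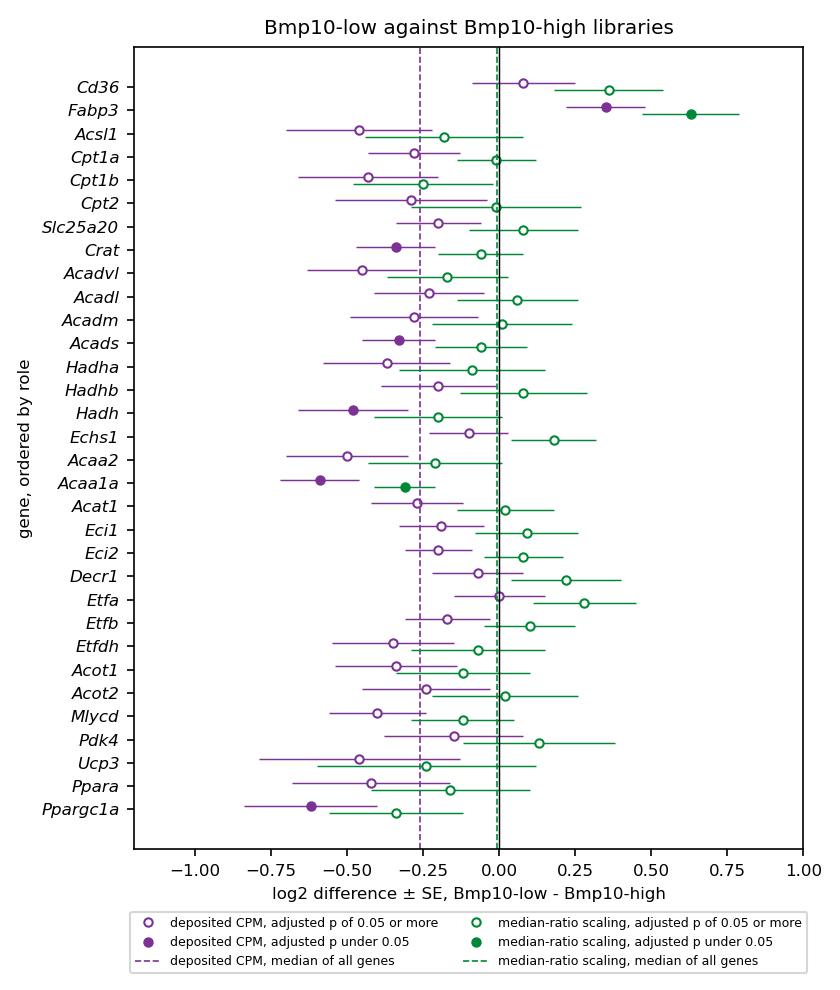
Log2 differences of the 32 genes between Bmp10-low and Bmp10-high libraries with SE, with the deposited CPM and with median-ratio scaling, where filled points have an adjusted p under 0.05 and dashed lines mark the median of all genes (-0.26 and -0.01). The 32 genes lie around the dashed line of their scaling, and Fabp3 and Acaa1a are filled in both.

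Genes around the pathway were looked at as a list. Of 79 further genes listed for fatty acid uptake, other mitochondrial and peroxisomal oxidation, lipid storage, ketone bodies and the regulators of these, 76 were measured, and 0 passed in males, in females, over both sexes, among Bmp10-high libraries or for the difference between the sexes. Their median difference was -0.01 in males and 0.03 in females, against 0.05 and 0.11 for all genes. Between the Bmp10 classes 1 of the 76 was higher and 33 were lower in Bmp10-low libraries, with a median of -0.35, against -0.26 for all genes, of which 1.79% were called higher and 30.0% lower. With median-ratio scaling 3 of the 76 were higher and 4 lower, with a median of -0.07, against -0.01 for all genes, of which 10.8% were called. With the deposited scaling the one higher was Acot13, an acyl-CoA thioesterase (0.32 ± 0.11, limma adjusted p = 0.0292). Among the 33 lower with that scaling were Acsl6, a long-chain acyl-CoA synthetase (-1.47 ± 0.26), and Mgll, the monoglyceride lipase (-0.79 ± 0.12). Ucp2, an uncoupling protein relative (-0.73 ± 0.15), and Pdk1, a pyruvate dehydrogenase kinase (-0.64 ± 0.12), were also among them.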

How the data were processed

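Polyadenylated RNA of 25 mouse atria was sequenced with a stranded kit, per the labels. Reads were aligned with HISAT2 to mm10, counted with HTSeq and compared with DESeq2, per the submitters' processing notes, with no versions given. The deposited table is headed FPKM, but the deposited values are CPM: in every library 100% of values were whole multiples of 1 step (tolerance 0.001 reads), which gave back the reads. Further columns of the authors' deposited table hold a log2 ratio and a p-value per gene, per the file headers, and 2 columns of the authors' means that were not used. Of 14467 lines, 10 lines of 5 repeated symbols were left out. For these symbols the MaleKOAtrium columns had equal values on both lines in 5 of 5 cases and the other columns in 0, so those 4 libraries may have been joined by symbol. The authors' annotation and strand setting are not given in the sources used here. The values were foreseen as FPKM, and the planned test, which suits CPM too, was kept.

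Tests used limma 3.58.1 (eBayes with trend, R 4.3.3) on log2(CPM + 1), over genes with at least 1 CPM in at least 5 libraries, with calls at a Benjamini-Hochberg p under 0.05 over all 14457. Alternatives were other scalings, a pseudocount of 0.5, a mean of at least 10 CPM, edgeR 4.0.16 and DESeq2 1.42.0 on recovered reads, other terms and libraries left out. Within groups, no 2 libraries differed as little as sampling noise (lowest chi-square per gene 3.07). Floors of 3 reads cover counting error only. The limma procedure was run on simulated counts with known changes. These counts held no differences between name sets or in tissue make-up, and the difference between the sexes was not simulated. The simulation therefore does not cover those features. The members and lists were chosen with earlier results of these data known. Named in full were genes called in any comparison and the 2 of smallest p in each direction of each comparison, while Eci1, Hadhb, Hadha and Fabp3 in males and Acsl1 and Acadvl in females were added with their values known. Gene coordinates come from GENCODE M21 (GRCm38), which held 99.1% of the symbols, and promoter windows from RefSeq.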

Additional observations from a re-analysis of the deposited data

Results flagged for a closer look

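Of 128 pairs of a gene and a group, 6 had 1 library far from the others of its group, where chance gives about 1 in 20. In knockout males KM01 was the low library for 4 genes: Cd36 at 478 CPM, Crat at 104 CPM, Ppara at 2.0 CPM and Ppargc1a at 26.9 CPM. In wild-type females WF12 was low for Acads, at 36.2 CPM, and in wild-type males WM5 was high for Mlycd, at 49.0 CPM.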

How the results depend on the processing

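The count of the 32 genes that passed stayed at 0 over both sexes, in females and among Bmp10-high libraries under all alternatives run. In males it was 1 with DESeq2 (Cd36), 0 to 1 when 1 library was left out (Decr1 without KM13) and 6 without KM01 and KM13. For the difference between the sexes it was 5 with DESeq2. Between the Bmp10 classes it was 2 with median-ratio, TMM or non-mitochondrial scaling, edgeR or DESeq2, and 1 with quantile normalization. It was 0 with a Bmp10 limit of 10 CPM or for LA against RA names, 1 in wild-type and 2 in knockout libraries alone. Without KM01 and WF10, or without KM01 and KM13, the count was 2, and with the ventricular term 9. It was 1 to 11 when 1 library was left out (1 without WM1, WF9 or KF19, and 11 without WF10). Of all genes, 31.8% were called in the main fit, 10.8% with median-ratio scaling, and 17.9% and 7.22% in wild-type and knockout libraries alone. For the other settings that share is not given here, so counts such as 9 and 11 are not read as results about the 32 genes. Directions turned for Ucp3 over both sexes with no set term (-0.25), Decr1 in males with a set term (0.18), and, between the Bmp10 classes, Crat with DESeq2 (0.01) and Hadh in wild-type libraries alone (0.16). The median of the 32 genes moved to 0.58 in males with a set term and to 0.25 for the difference between the sexes without one. The causes were not tested.

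Males share the numbers 1, 3, 5 and 7 across genotypes. Deviations of same-numbered males correlated at 0.282, -0.104, 0.0541 and 0.0621 over genes, within the range of differently numbered males, -0.309 to 0.404. Same numbers thus showed no sign of a pairing, but with so few libraries of each genotype this check cannot exclude one. With the replicate block 0 of the 32 genes passed and 1 gene of all, against 0 and 13 in the same 8 males without it. Genes near the floor of 0.370 to 1.34 CPM, such as Cpt1b, are limited by depth. The alternatives without KM01 and KM13, without KM01 and WF10 and with the ventricular term were chosen after seeing the data.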
